A study of Mus musculus with 3 samples.

Results

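Blastocysts of aging mice that were cultured with CXCL5-CXCR2 signaling blocked were set against blastocysts of young mice, to describe which genes still differed from young embryos. This comparison uses 2 of the 3 arrays of the series. Members are the genes with a probe that the scanner software called well above background on both arrays, and 14170 of the 23462 genes with a named probe met this rule. The young blastocysts came from ICR females of 3 to 6 weeks of age, and the suppressed aging blastocysts from ICR females of 43 to 53 weeks. Zygotes of all groups were collected 18 h after hCG and cultured for 96 h in KSOM medium. The suppressed aging embryos were cultured with an anti-CXCL5 neutralizing antibody at 10 μg/ml and a CXCR2 antagonist at 10 nM, and the young embryos with neither. The remaining array, of untreated aging blastocysts from females of 43 to 53 weeks, is given beside the others. Each array held RNA of 1 pool of 30 blastocysts, so the differences have no error between pools, no test between conditions was possible. With so few arrays, every value below is known no better than 1 pool allows. Age and treatment differ together between the young and the suppressed aging pool, and their parts in a difference cannot be told apart. The untreated aging pool differs from the suppressed pool by treatment and from the young pool by age, and its values stand beside the difference for that reason. Both aging pools are set against the same young array. Where both lie on 1 side of young, the 2 differences are not independent.

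A blastocyst consists of an outer trophectoderm, which attaches to the uterus and forms the placenta, and an inner cell mass, which divides into epiblast and primitive endoderm. CXCL5 is a chemokine that signals through the receptor CXCR2 and is secreted by senescent cells. Levels below are log2 intensities minus the 75th percentile of the array, and a difference is the suppressed aging level minus the young level unless said otherwise. For a gene with several probes, the one with the highest mean level is given first. Levels of different genes are not compared, since probes differ in brightness.

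Both pools had the lineage markers of a blastocyst. Of the trophectoderm markers 22 of 23 were measured on both arrays, of the epiblast markers 21 of 22 and of the primitive endoderm markers 17 of 18. Of 9 cumulus and granulosa cell markers, Has2, Tnfaip6, Ptx3, Fshr and Inhba were not well above background on both arrays, and the 4 others differed by -0.36 to 0.17, with Foxl2 at 8.66 in young and 8.77 in suppressed aging blastocysts. The 15 housekeeping genes had a median difference of 0.03, and 0 of them differed over 2-fold.

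Over all 14170 genes the median difference was 0.04 and the median absolute difference was 0.35. In the suppressed aging pool 7581 genes (53.5%) were higher and 6589 (46.5%) lower. Past 2-fold, 1010 genes (7.13%) were higher and 923 (6.51%) lower, and past 5-fold 140 (0.988%) were higher and 109 (0.769%) lower. These shares are the background for every gene group below. Large differences were less frequent among bright genes. In the brightest 25%, 3543 genes with a mean level of at least 2.41, 112 (3.16%) were over 2-fold higher and 98 (2.77%) over 2-fold lower. Either direction together this was 5.93% of the brightest 25%, against 21.0% of the dimmest 25%.

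**Figure D1:**
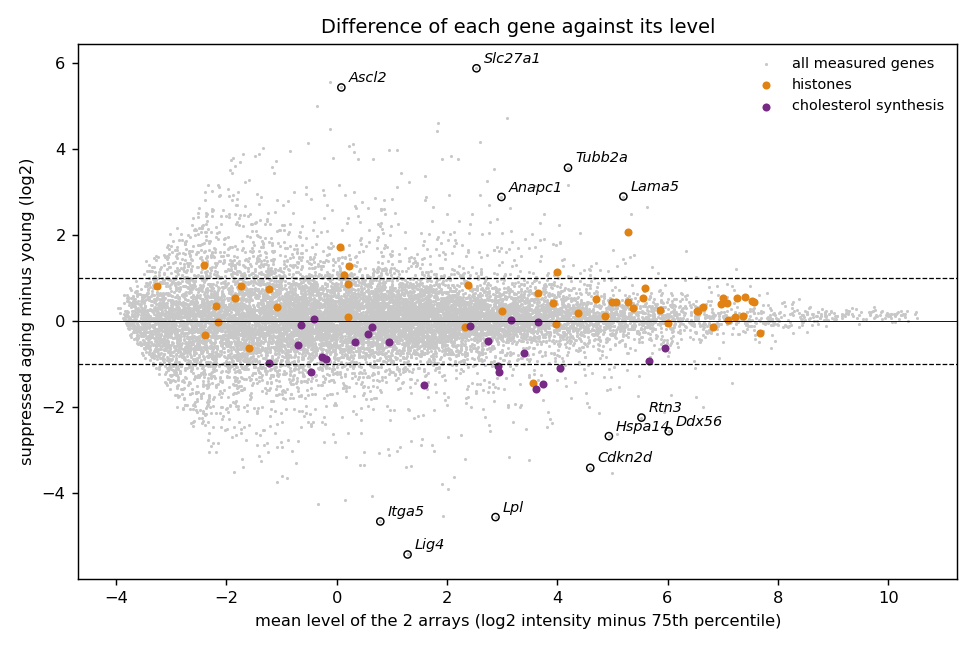
Difference of each of 14170 genes (y axis, suppressed aging minus young, log2) against its mean level on the 2 arrays (x axis, log2 intensity minus the 75th percentile). Dashed lines mark 2-fold. The grey cloud narrows toward bright genes, cholesterol synthesis genes (purple) lie mostly below 0 and histone genes (orange) mostly above.

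Reading a gene by a second probe gives a check within the same pools. For 4817 genes, at least 2 probes were measured on both arrays, and the brightest 2 differed in the same direction in 56.2% of them. Both probes were over 2-fold higher for 56 genes (1.16%) and over 2-fold lower for 38 (0.789%). The differences of the brightest 2 probes lay a median of 0.47 apart. Among the 579 of these genes whose brightest probe was past 2-fold, the second probe had the same direction in 334 and passed 2-fold the same way in 94. A difference seen by 1 probe alone often did not recur at the other, and measured second probes are given below beside most of the genes described. The spread between replicate spots was smaller, since a single spot pair had a median SD of 0.07 over 288 probes that were spotted 10 times.

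Of 91 gene lists, 80 had at least 10 measured genes. The median of 73 of these lay within 0.2 of the median of all genes, 3 lay above this range and 4 below it. Those above were imprinted genes, histones and epiblast genes. Those below were cholesterol synthesis, primitive endoderm genes, a list that joins the CXCL5 axis, the aging markers of the study and other secreted senescence factors, and the chemokines with their receptors. Cholesterol synthesis lay farthest from all genes.

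**Figure D2:**
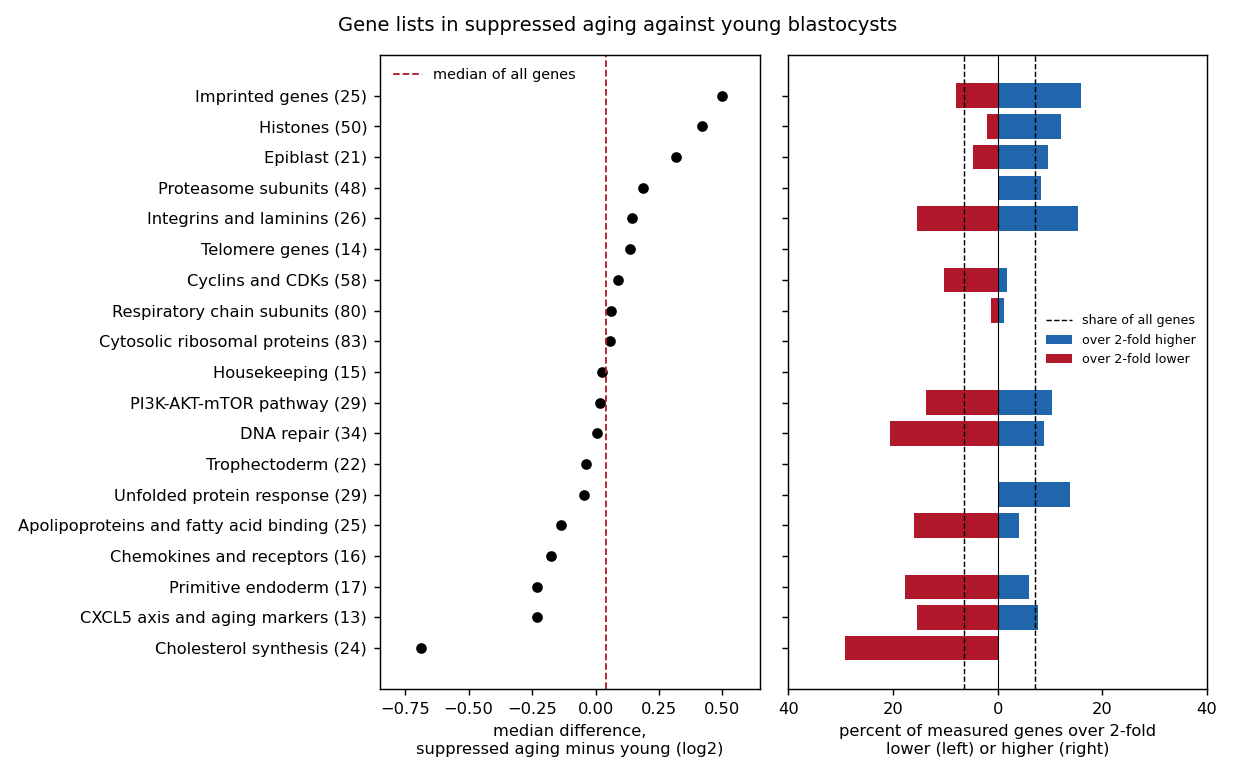
Left, median difference of the measured genes of 19 lists (log2, number of measured genes in parentheses), with the median of all genes dashed. Right, percent of those genes over 2-fold lower (red, to the left) or higher (blue, to the right), with the shares of all genes dashed. Cholesterol synthesis has the lowest median, -0.69, and 7 of 24 genes over 2-fold lower, while imprinted genes have the highest, 0.50.

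Genes of cholesterol synthesis were lower in suppressed aging than in young blastocysts almost throughout the pathway. All 24 members of the list were measured, and 22 were lower, against 46.5% of all genes. Of these, 7 were over 2-fold lower (29.2%, against 6.51% of all genes) and 0 were over 2-fold higher. The median difference was -0.69. Untreated aging blastocysts had a median difference from young of -0.22 over the same 24 genes. In the pathway, acetyl units are built up to mevalonate, mevalonate is turned into isoprenoid units, and these are joined to squalene, which is closed to a ring and trimmed to cholesterol. The transcription factor SREBP2, which needs SCAP for its activation and is held back by INSIG1, raises most of these genes when sterols are low.

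Promoters of 4 of the lower genes are shown, because the pathway is known for shared sterol control. They span 250 bases before to 50 bases after the start of transcription in RefSeq's GRCm38.p6, and are those of Hmgcs1 (chr13:119690101-119690400, plus strand), Mvd (chr8:122443373-122443672, minus strand), Cyp51 (chr5:4104648-4104947, minus strand) and Msmo1 (chr8:64733529-64733828, minus strand). Capitals mark matches on either strand to TCACNCCAC, the core of a sterol regulatory element with N for any base, and to CCAAT, the box bound by NF-Y.
Hmgcs1: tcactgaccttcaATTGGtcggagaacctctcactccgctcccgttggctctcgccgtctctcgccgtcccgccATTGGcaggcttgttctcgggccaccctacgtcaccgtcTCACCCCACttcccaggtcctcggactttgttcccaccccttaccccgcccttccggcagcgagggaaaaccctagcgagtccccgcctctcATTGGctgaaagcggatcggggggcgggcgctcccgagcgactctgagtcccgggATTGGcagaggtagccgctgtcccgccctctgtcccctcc
Mvd: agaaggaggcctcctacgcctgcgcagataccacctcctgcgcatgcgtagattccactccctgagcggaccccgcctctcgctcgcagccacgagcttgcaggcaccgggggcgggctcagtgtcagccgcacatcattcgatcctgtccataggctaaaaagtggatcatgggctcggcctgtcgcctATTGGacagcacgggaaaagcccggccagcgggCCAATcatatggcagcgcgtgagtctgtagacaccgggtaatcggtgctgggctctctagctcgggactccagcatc
Cyp51: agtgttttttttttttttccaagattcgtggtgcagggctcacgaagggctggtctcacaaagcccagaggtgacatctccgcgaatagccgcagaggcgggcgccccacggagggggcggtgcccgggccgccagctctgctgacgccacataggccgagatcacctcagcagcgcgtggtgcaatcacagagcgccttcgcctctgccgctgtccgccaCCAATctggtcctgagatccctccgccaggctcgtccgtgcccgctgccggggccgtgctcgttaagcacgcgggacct
Msmo1: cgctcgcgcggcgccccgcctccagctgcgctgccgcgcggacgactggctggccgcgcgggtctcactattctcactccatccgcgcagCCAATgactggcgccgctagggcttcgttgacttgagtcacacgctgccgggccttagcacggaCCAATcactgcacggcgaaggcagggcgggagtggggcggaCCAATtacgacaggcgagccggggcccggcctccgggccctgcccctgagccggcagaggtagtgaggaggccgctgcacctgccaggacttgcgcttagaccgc

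Hmgcs1 held 1 sterol element and 4 CCAAT boxes, Msmo1 3 CCAAT boxes, Mvd 2 and Cyp51 1. Of the 24 cholesterol genes, 18 matched the promoter table by symbol, with 24 promoters. The sterol element was in 1 of these promoters (4.17%), against 1.24% of 32851 promoters of the same length. The CCAAT box was in 18 of the 24, against 37.4% of all. A match is a description of the letters, and no match says only that these letters are not in this window.

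At the head of the pathway, Hmgcs1, which makes HMG-CoA, was at 4.60 in young, 4.06 in untreated aging and 3.51 in suppressed aging blastocysts, a difference of -1.09. It was lowest in the suppressed pool, with the untreated aging pool between. The next enzymes, the kinases Mvk and Pmvk, differed by 0.04 and -0.63, and their second probes by -0.76 and 0.11, so that neither had a direction common to both probes. Mvd, the decarboxylase after them, was at 3.44 in young, 2.37 in untreated aging and 2.41 in suppressed aging blastocysts, a difference of -1.03. Idi1, the isomerase that makes the second isoprenoid unit, was at 6.13, 5.28 and 5.19, a difference of -0.94. For both, the aging pools lay side by side below the young pool.

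The enzymes that build squalene were lower too. Fdps, which makes farnesyl diphosphate, was at 4.47 in young, 3.79 in untreated aging and 3.01 in suppressed aging blastocysts, 2.74-fold lower than young. Fdft1, squalene synthase, was at 4.41, 3.68 and 2.83, a difference of -1.58 or 2.98-fold lower. Its second probe was at 3.64 in young, 2.96 in untreated aging and 2.71 in suppressed aging blastocysts, a difference of -0.93. All of these probes had the same order of pools. Sqle, which oxidises squalene, differed by -0.75, and Lss, which closes the ring, by -0.83 with dimmer probes at 0.22 and 0.32.

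Past the ring closure, Cyp51, the demethylase of lanosterol, was at 2.33 in young, 2.12 in untreated aging and 0.84 in suppressed aging blastocysts, a difference of -1.49. A second Cyp51 probe differed by -0.99. Msmo1, the methyl oxidase that follows, was at 3.54, 3.31 and 2.35, a difference of -1.19, with -1.03 at its second probe. Msmo1 passed 2-fold by both of its probes, and for both genes the brighter probe in the untreated aging pool lay close to young. At the second probes it did not, and untreated aging differed from young by -0.70 for Cyp51 and -0.74 for Msmo1. Of the later enzymes, Sc5d differed by -0.98, Tm7sf2 by -0.57 and -1.18 at its probes, Hsd17b7 by -0.50 and 0.09, Nsdhl by -0.15 and Ebp by -0.11 and -0.35. Dhcr7, a reductase near the end of the pathway, differed by 0.03.

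The regulators were lower as well, by less than 2-fold. Srebf2, which encodes SREBP2, was at 1.19 in young, 1.10 in untreated aging and 0.69 in suppressed aging blastocysts, a difference of -0.49. Insig1 was at 0.25, 0.18 and -0.63, a difference of -0.88. Srebf1 and Scap differed by -0.29 and -0.10. Among the 10 members with a second measured probe, the median difference at the second probe was -0.76. The distance of the list's median from that of all genes was between -0.77 and -0.55 under all alternatives tried.

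**Figure D3:**
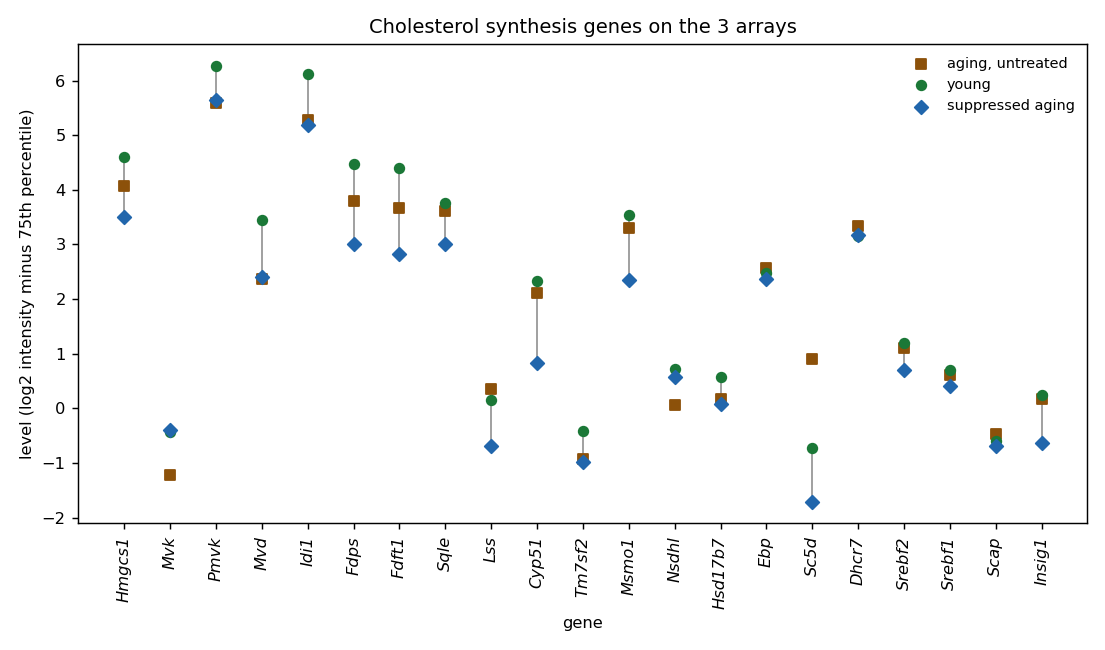
Level (y axis, log2 intensity minus the 75th percentile) of 21 cholesterol synthesis genes on the 3 arrays, enzymes in pathway order from Hmgcs1 to Dhcr7, then regulators. Grey lines join young (circles) and suppressed aging (diamonds), and squares are untreated aging. The diamond lies below the circle for 19 of 21 genes, and Dhcr7 and Mvk are the exceptions.

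Other lipid genes were lower more often than higher, mostly by less than 2-fold. Of 25 measured genes in the symbol family of apolipoproteins, fatty acid binding proteins and lipoprotein receptors, 16 were lower, 4 over 2-fold lower and 1 over 2-fold higher, with a median of -0.14. That family also takes in genes of other function by name, such as Apobec3 and Apoo. Lpl, the lipase that frees fatty acids from lipoproteins, was at 5.16 in young, -0.71 in untreated aging and 0.60 in suppressed aging blastocysts, a difference of -4.56. Its 2 other probes differed by -1.04 and -0.81. The direction was common to all 3 probes, while the size at the brightest probe was not. Apom, a carrier of sphingosine phosphate, differed by -1.58, and Vldlr, a lipoprotein receptor, by -1.09. In the list of fatty acid metabolism, 19 of 26 measured genes were lower with a median of -0.08, so that most differences were small. Acly, which supplies cytosolic acetyl-CoA to both sterol and fatty acid synthesis, was at 3.66 in young, 0.89 in untreated aging and 2.01 in suppressed aging blastocysts, a difference of -1.65, with -0.48 at its second probe. Acaca, the carboxylase of fatty acid synthesis, was split over its 4 measured probes, with 1.01 and 2.13 at the brighter ones and -0.94 and -0.25 at the dimmer ones. Fasn, Scd1 and Scd2 differed by -0.12, -0.01 and -0.21.

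Histone genes were higher in suppressed aging than in young blastocysts. Of 50 measured, 41 were higher, against 53.5% of all genes, with 6 over 2-fold higher (12%, against 7.13%) and 1 over 2-fold lower. The median difference was 0.42. The replication-dependent histones are made in S phase from clustered genes that lie close together and whose sequences are near identical, so a probe may read several copies and the 50 values are not independent. By class, 15 of 16 H2A genes, 7 of 9 H2B genes, all 8 H3 genes and 7 of 8 H4 genes were higher, with medians of 0.44, 0.24, 0.39 and 0.58. The linker histones H1 were split, with 4 higher and 5 lower. In untreated aging blastocysts the median difference from young over the same 50 genes was 0.32.

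Single histone genes ranged from -1.45 to 2.07. H2aw, an H2A gene outside the large clusters, was at 4.24 in young, 5.06 in untreated aging and 6.31 in suppressed aging blastocysts, 4.19-fold higher than young. H2bc4 was at -0.79, 0.37 and 0.93, a difference of 1.73, and H4c3 at 3.43, 4.28 and 4.56, a difference of 1.13. These genes had the same order of pools, with untreated aging in between. H2bc21, H4c8 and H2bc6 were higher by 1.30, 1.27 and 1.08. Many core histone genes lay in a narrow band, such as H2ac12 at 0.48, H2ac15 at 0.53 and H2ac20 at 0.53. Of the variants, H2az1 was at -0.15 and H3f3a at 0.02 with -0.55 at its second probe, while H2ax was at 0.44 and H3f3b at 0.54 and 0.39 by its probes. The linker histone H1f5 was at 4.29 in young and at 2.76 and 2.85 in the aging pools, a difference of -1.45. Of the 5 histone genes with a second measured probe, the median at that probe was 0.04. With normexp background correction the distance of the list's median from that of all genes was 0.21, against 0.38.

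The H2aw promoter (chr11:58954435-58954734, plus strand, RefSeq, GRCm38.p6) is shown as that of the histone gene with the largest difference, with capitals for matches on either strand to ATTTGCAT, the octamer known from H2B promoters, and to CCAAT.
H2aw: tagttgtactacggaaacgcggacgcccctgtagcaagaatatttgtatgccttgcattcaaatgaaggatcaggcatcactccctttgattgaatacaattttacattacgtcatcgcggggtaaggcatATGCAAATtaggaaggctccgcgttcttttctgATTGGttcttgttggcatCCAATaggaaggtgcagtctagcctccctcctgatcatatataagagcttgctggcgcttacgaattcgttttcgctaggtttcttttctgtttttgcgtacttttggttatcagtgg

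It held 1 octamer and 2 CCAAT boxes. The octamer was in 10 of 46 promoters of measured histone genes (21.7%), against 1.74% of all promoters. The CCAAT box was in 39 of them (84.8%), against 37.4%. Neighbouring H2A and H2B genes can share 1 promoter region, so these promoters are not independent.

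**Figure D4:**
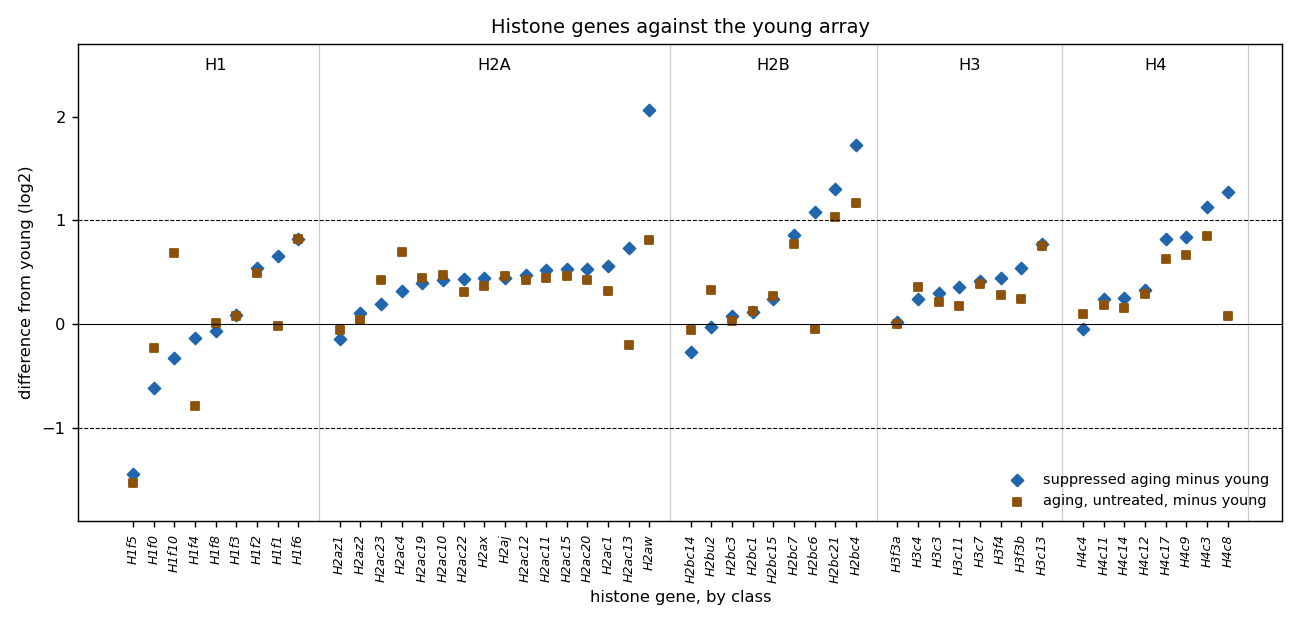
Difference from the young array (y axis, log2) of 50 histone genes (x axis, by class) for suppressed aging (diamonds) and untreated aging (squares) blastocysts. Both sets of differences use the same young array. Dashed lines mark 2-fold. Most core histone genes lie above 0, with H2aw highest at 2.07 and the linker histone H1f5 lowest at -1.45.

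Imprinted genes, which are expressed from the copy of 1 parent and of which many act in placental growth, had the highest median of all lists with 10 or more measured genes. Of 25 measured, 19 were higher, 4 over 2-fold higher and 2 over 2-fold lower, with a median of 0.50. The 13 maternally expressed genes had a median of 0.60 with 11 higher, and the 12 paternally expressed genes a median of 0.27 with 8 higher. Over the whole list, 12 genes had a second measured probe, with 7 higher and 5 lower there and a median of 0.17. In untreated aging blastocysts 14 of the 25 genes were above young and 11 below, with a median difference of 0.11. Ascl2, a transcription factor of trophoblast progenitors, was at -2.63 in young, -1.80 in untreated aging and 2.80 in suppressed aging blastocysts, 43.2-fold higher than young by its single measured probe. Phlda2, which restrains placental growth, was at -0.93, -0.02 and 0.36, a difference of 1.28. Both belong to the imprinted cluster around Kcnq1, of which Cdkn1c, Slc22a18, Tssc4 and Cd81 differed by 0.83, 0.70, 0.68 and 0.24 and Osbpl5 by -0.08. The direction in Slc22a18 was the same at its second probe, 0.76, whereas Cd81 and Osbpl5 had second probes at -0.46 and 0.27. Kcnq1ot1, the noncoding RNA of the same cluster, was at 6.11 in young, 5.56 in untreated aging and 5.27 in suppressed aging blastocysts, a difference of -0.84, with -0.38 and -0.82 at the next probes and 0.99 at the dimmest. H19, the long RNA beside Igf2, was higher by 0.87, and Igf2 itself by 0.79 with -0.61 at its second probe. Peg3, a paternally expressed zinc finger gene, was at -3.89, -3.40 and -0.89, a difference of 3.00. The noncoding Meg3 was lower by both probes, at -1.86 in young, -1.62 in untreated aging and -3.11 in suppressed aging blastocysts by the first, with differences of -1.25 and -1.86. Sgce was lower by 1 probe and higher by the other, at -1.08 and 1.93. With the mean over all probes of a gene, the distance of the list's median from that of all genes was 0.30, against 0.46.

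Epiblast genes lay above and primitive endoderm genes below the median of all genes. Of 21 epiblast genes 15 were higher, 2 past 2-fold, and 1 was over 2-fold lower, with a median of 0.32. With normexp background correction the distance of the epiblast median from that of all genes was 0.15, against 0.27, and that of primitive endoderm genes -0.19, against -0.27. Within the brightest 25% of genes the distances were smaller. There the 11 epiblast genes had a median of 0.15 and the 6 primitive endoderm genes one of -0.10, against 0.07 for all bright genes. In untreated aging blastocysts 17 of the 21 epiblast genes were above young and 4 below, with a median difference of 0.27. In a pool, more cells of a lineage and more RNA per cell cannot be told apart. Sox2, a pluripotency factor, was at 1.0 in young, 2.37 in untreated aging and 2.11 in suppressed aging blastocysts, a difference of 1.10. Spp1, the secreted adhesion protein osteopontin, was at 0.58, 1.54 and 2.89, a difference of 2.32. Both aging pools were above the young pool for each of them. The other factors had smaller differences in the same direction, with Esrrb at 0.89, Sall4 at 0.74, Tfcp2l1 at 0.45, Pou5f1 at 0.32 and Nanog at 0.15 and 0.88 by its probes, while Klf4 and Prdm14 differed by -0.44 and -0.71. Lefty2, an inhibitor of Nodal signaling, was at 1.33, 0.77 and -0.34, a difference of -1.67.

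Of 17 primitive endoderm genes 12 were lower, 3 over 2-fold lower and 1 over 2-fold higher, with a median of -0.23. In untreated aging blastocysts 9 of the 17 were above young and 8 below, with a median difference of 0.06. Foxa2, a transcription factor of the endoderm, was at 0.95 in young, 1.01 in untreated aging and -0.99 in suppressed aging blastocysts, a difference of -1.94. Sparc, a matrix protein that parietal endoderm secretes in bulk, was at 5.07, 3.85 and 4.06, a difference of -1.02, with -0.83 at its second probe. The untreated aging pool was beside young for Foxa2 and beside suppressed aging for Sparc. Matrix genes were spread, with Col4a2 at -0.92, Lama1 at -0.80, Col4a1 at -0.14 and Lamb1 at 1.05 with -0.07 at its second probe. The earliest markers differed little by their brightest probes, Gata6 by 0.22 and Gata4 by -0.06 with -1.03 at its second probe, and the receptor gene Pdgfra was at 0.57.

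Trophectoderm genes lay near young in the suppressed aging pool. Of 22 measured, 0 were over 2-fold apart and the median was -0.04. However, 18 of them were in the brightest 25% of genes, where large differences were less frequent. The median absolute difference of the list was 0.23, against 0.23 over all genes of the brightest 25%. In untreated aging blastocysts 17 of the 22 genes were below young and 5 above, with a median difference of -0.25. Cdx2 and Eomes, factors that specify the trophectoderm, differed by -0.08 and -0.03. Gata3 was at 0.31 and Gata2 at 0.11, and the keratins Krt8 and Krt18 were at 0.10 and -0.32. The widest differences of the list were 0.80 for Krt19 and -0.74 for Krt7.

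Genes of cell-matrix adhesion, which the trophectoderm uses at attachment, differed in both directions. Of 26 measured integrin and laminin genes 4 were over 2-fold higher and 4 over 2-fold lower (15.4% each), with a median of 0.14. Laminin chains were among the higher genes. Lama5 was at 3.75 in young, 4.83 in untreated aging and 6.65 in suppressed aging blastocysts, 7.45-fold higher than young, and Lama4 was higher by 2.54 and Lama3 by 1.45. Lamc1 differed by -0.94 with -0.04 at its second probe, and Lamb2 by -1.16. Itga5, a chain of the fibronectin receptor, was at 3.12 in young and at -1.92 and -1.54 in untreated and suppressed aging blastocysts, a difference of -4.66. The brightest member, Itgb7, differed by 0.30 and by 0.69 at its second probe. The name pattern of this family also takes in Itgb1bp1 and Itgb3bp, which are no integrins.

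Of the CXCL5 axis, neither Cxcl5 nor Cxcr2 had a probe well above background on both arrays. Cxcl5 was above background in young blastocysts alone, at -3.71, and Cxcr2 in suppressed aging blastocysts alone, at -3.12, where the lowest levels called above background on these arrays were -4.20 and -3.93. The aging markers of the study were mixed. Trp53 was at 3.02 in young, 2.82 in untreated aging and 2.73 in suppressed aging blastocysts, a difference of -0.28. Cdkn1a, the p53-driven inhibitor of cell division, was at 1.96, 2.32 and 2.11, a difference of 0.15 with -0.29 at its second probe. Neither was past 2-fold. Cdkn2a, which encodes p16, was at -2.00, -3.14 and -2.90, a difference of -0.90. Il6, a cytokine secreted by senescent cells, was at -2.56 in young, -2.77 in untreated aging and -1.36 in suppressed aging blastocysts, a difference of 1.20 at a dim probe. The 13 measured genes of the list split into 6 above and 7 below young, and their median was -0.23, or -0.18 from that of all genes with normexp, against -0.27. The 5 aging markers of the study within it had a median of 0.15, and the 8 other secreted senescence factors one of -0.25. Vegfa, an angiogenic factor that embryos and senescent cells secrete, was at -0.42 in young, -1.04 in untreated aging and -2.44 in suppressed aging blastocysts by its brightest probe, a difference of -2.02. Its second probe was at -0.84, -0.57 and -2.84, a difference of -2.00, and a further, dimmer probe differed by 1.07. The remaining Vegfa probe was at -0.87 in untreated aging and -1.14 in suppressed aging blastocysts and not well above background in young, so the probes did not share a direction. Lmnb1, a nuclear lamin that senescent cells lose, was at 4.66, 3.97 and 3.64, a difference of -1.02. Of the matrix metalloproteinases named in the study, Mmp8 and Mmp15 were measured, with differences of -0.28 and -0.58. Mmp1a, Mmp1b, Mmp9 and Mmp10 had no probe well above background on both arrays. Of these, Mmp9 and Mmp1b were above background in young blastocysts alone, at -1.79 and -4.09 by 1 probe each. Rasgrf2 was not well above background on any array. Of 16 measured chemokine and chemokine receptor genes 11 were lower, 0 past 2-fold, with a median of -0.17. Over the alternatives tried, the list median lay 0.10 to 0.25 below that of all genes.

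DNA repair genes had a median of 0.01 and a wide spread, with 3 of 34 over 2-fold higher and 7 over 2-fold lower (20.6%, against 6.51% of all genes). The 7 lower genes were Lig4, Pms2, Palb2, Nbn, Atm, Ogg1 and Prkdc, and 5 of them act on DNA breaks. Lig4, the ligase of end joining, was at 4.0 in young, -0.79 in untreated aging and -1.43 in suppressed aging blastocysts, a difference of -5.43. A second Lig4 probe was at 0.34, -1.36 and -2.15, a difference of -2.49. Palb2, the partner of BRCA2, was at -0.98, -2.57 and -3.03, with differences of -2.05 and -1.60 by its probes. Both pools of aging females lay below young for these genes. Pms2, of mismatch repair, was at 2.61, -0.39 and -0.41, a difference of -3.02, and Nbn, Ogg1 and Prkdc differed by -1.51, -1.21 and -1.03 by single probes. Atm differed by -1.26 with 0.44 at its second probe. On the other side, Xpc, of nucleotide excision repair, was higher by 1.45, and Lig3, a ligase, by 3.53 with 0.30 at its second probe. Brca1 and Brca2 differed by 0.69 and 0.65 at their brightest probes and by 0.02 and 0.03 at the second. The mismatch repair gene Msh6 differed by -0.00.

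Cyclins, cyclin-dependent kinases and their inhibitors had 6 of 58 genes over 2-fold lower and 1 over 2-fold higher, with a median of 0.09. Ccnc, the cyclin of the Mediator kinase module, was at 4.33 in young, 2.74 in untreated aging and 2.37 in suppressed aging blastocysts, a difference of -1.96. Its second probe was at 4.15, 0.83 and 1.25, a difference of -2.90, and 2 dimmer probes differed by -0.16 and -0.73, so all 4 pointed the same way. Inhibitors made up several of the lower genes, with Cdkn2d at 6.30 in young, 2.60 in untreated aging and 2.89 in suppressed aging blastocysts, a difference of -3.41, Cdkn3, a phosphatase that acts on cyclin-dependent kinases, at -1.77 and -0.99 by its probes, and Cdkn2b at -1.35. Of the cyclins and kinases that drive division, the brightest probes differed less than 2-fold, Ccnb1 by 0.07, Ccna2 by 0.04, Cdk2 by -0.07 and Cdk4 by -0.46, with Cdk1 at 0.69. Second probes were at 0.24 for Ccnb1, 0.28 for Ccna2 and -0.42 for Cdk4.

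Proteasome genes were higher in small steps. Of 48 measured, 38 were higher, 4 over 2-fold higher and 0 over 2-fold lower, with a median of 0.19. In untreated aging blastocysts the median difference from young was 0.21. Psmb3, a subunit of the core particle, was at 6.64 in young, 6.98 in untreated aging and 7.51 in suppressed aging blastocysts, a difference of 0.87. Psmd3, of the regulatory particle, was at 6.01, 6.31 and 7.03, a difference of 1.02 with 0.13 at its second probe. Psmb10, an immunoproteasome subunit, was higher by 1.91, and Psme2b by 1.62 with 0.33 at its second probe. The fourth, Psmc3ip, at 1.07 and 0.76 by its probes, is a recombination factor with a proteasome name. The distance of the median from that of all genes was 0.08 to 0.16 over the alternatives tried.

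In the unfolded protein response, 4 of 29 genes were over 2-fold higher, 0 were over 2-fold lower, and the median was -0.04. Sel1l, an adaptor that delivers misfolded proteins for degradation, was at -0.36 in young, 0.73 in untreated aging and 2.13 in suppressed aging blastocysts, a difference of 2.49. Its second probe was at -1.29, -2.08 and 0.29, a difference of 1.58. Atf4, a transcription factor of the stress response, was at 6.63, 6.62 and 7.84, a difference of 1.21 with 0.25 at its second probe, and Nfe2l2, of the oxidative stress response, was higher by 1.55 and the sensor gene Ern1 by 1.04. Of the 21 genes of chaperones and degradation in the list, 9 lay above and 12 below young, and the median was -0.12. Among these, Hspa5 was at -0.53 with 0.02 at its second probe, Hsp90b1 at -0.21, Pdia3 at -0.23 and -0.48, and Manf at -0.23 and -0.70.

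The PI3K-AKT-mTOR list had 3 of 29 genes over 2-fold higher and 4 over 2-fold lower, with a median of 0.02. The largest differences were seen at 1 probe only. Rps6kb1, the S6 kinase, was at 0.15 in young, 0.45 in untreated aging and 3.99 in suppressed aging blastocysts, a difference of 3.84 with -0.54 at its second probe. Rictor, the mTORC2 scaffold, differed by -3.40 with -0.12 at its second probe. Ddit4, a stress-induced mTORC1 inhibitor, was at 2.50, 3.92 and 3.55, a difference of 1.06.

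Among genes with 2 agreeing probes, the higher ones included Anapc1, the largest subunit of the anaphase-promoting complex. Its probes were at 1.55 and 0.08 in young, 1.95 and 0.20 in untreated aging and 4.43 and 4.49 in suppressed aging blastocysts, differences of 2.89 and 4.41. Of the other subunits Anapc4 differed by 1.13 with 0.22 at its second probe, and Anapc5 by -0.83. Washc1, of the WASH complex that branches actin on endosomes, was at 2.54, 2.94 and 4.82, with differences of 2.27 and 2.04. Strn4, a striatin of the STRIPAK phosphatase complex, differed by 2.38 and 2.23, and Inppl1, the inositol phosphatase SHIP2, by 2.40 and 2.51. For Anapc1, Washc1 and Strn4 the untreated aging level was within 0.5 of young, while for Inppl1 it was at -0.25 and 0.47 against -0.99 and -2.11 in young blastocysts. Septin1, Lcmt2, Rabl2, Sdc1 and AU015836 were the others of the 10 leading genes beside Sel1l.

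The lower genes with 2 agreeing probes were led by Lig4, and several were bright. Ddx56, a helicase of ribosome assembly, was at 7.30 in young, 4.47 in untreated aging and 4.74 in suppressed aging blastocysts, with differences of -2.56 and -2.10 and 0.82 at a further, dim probe. Rtn3, a reticulon of the endoplasmic reticulum, was at 6.65, 3.40 and 4.41, with differences of -2.24 and -2.57. Setd6, a lysine methyltransferase, was at 5.83, 2.98 and 3.69, with differences of -2.14 and -2.26. In these genes both aging pools lay far below young, the untreated pool lowest or level with the other. The genes were chosen by their difference from the same young array, so the untreated pool is no independent check here. Hspa14, a ribosome-bound chaperone, was at 6.27, 3.45 and 3.60, with differences of -2.67 and -1.94, and 0.16 at a further probe. Gm5907, a predicted gene, was at 0.91, 0.87 and -1.43, with differences of -2.34 and -2.42. For Gm5907 the untreated aging pool was beside young at both probes. Vegfa, Ccnc, Palb2 and Kif21b completed the 10.

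**Figure D5:**
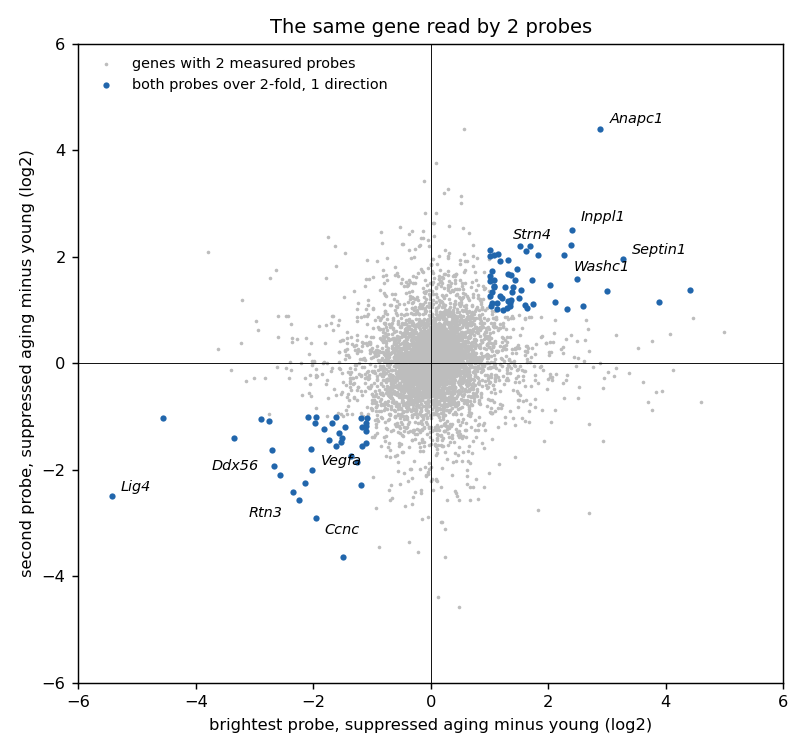
Difference (log2, suppressed aging minus young) by the brightest probe (x axis) and by the second probe (y axis) of 4817 genes. Blue points are the 56 genes with both probes over 2-fold higher and the 38 with both over 2-fold lower. The grey points spread along both axes, since most large differences were seen by 1 probe only.

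In the brightest 25% of genes, 12 of the 20 with the largest differences had a single measured probe. The cut of 2.41 was set on the mean of the 2 arrays compared, so a gene could pass it by its higher array alone. Slc27a1 in young and Lpl in suppressed aging blastocysts, at 0.60, were below the cut. A place in this group is therefore no check on such a difference. Slc27a1, a fatty acid transporter, was at -0.40 in young, 1.21 in untreated aging and 5.47 in suppressed aging blastocysts, 58.8-fold higher than young. Tubb2a, a beta-tubulin, was at 2.41, 3.09 and 5.98, a difference of 3.57. The uncharacterised 1810044D09Rik and 1110059G10Rik were higher by 4.73 and 4.17, and Letmd1 and Klf16 by 3.27 and 3.17. Where a second probe was measured it differed less, as for Lamp2, a lysosomal membrane protein, with 3.14 and 0.54, or had the other sign, as for Bbs9 with 2.94 and -1.46. On the lower side, Prss32, a serine protease, was at 6.76, 2.56 and 3.23, a difference of -3.53, and Ranbp2, of the nuclear pore, was at 4.71, 1.07 and 1.55, a difference of -3.17. Gfer and Kdsr differed by -3.24 and -2.62 by their brightest probes and by 0.39 and -0.08 by the second. For Prss32, Ranbp2, Gfer and Kdsr the level in untreated aging blastocysts was within 1 of the suppressed level.

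Families of ribosomal protein and respiratory chain genes, most of them bright, differed little. Of 83 cytosolic ribosomal protein genes 0 were over 2-fold apart, with a median of 0.06, and the 80 respiratory chain genes held 1 past 2-fold in each direction, with a median of 0.06. The 77 mitochondrial ribosomal protein genes held 2 over 2-fold higher and 1 lower. The 14 telomere genes had 0 past 2-fold, with 12 higher and a median of 0.14, and the 21 genes of mitochondrial dynamics and biogenesis had 0 past 2-fold, with 16 lower and a median of -0.11. Olfactory and vomeronasal receptors were mostly below background on these arrays, and among the measured ones 7 of 244 were over 2-fold higher and 7 lower.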

How the data were processed

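Gene expression was measured in 3 pools of mouse blastocysts (young, untreated aging, suppressed aging), 1 pool and 1 array each, on 1-colour Agilent mouse arrays of 1 slide read in 1 scan. The methods describe global PCR amplification from a single primer, the labels a low-input cRNA labelling kit, and which was used is not settled by the files. The authors deposited scanner intensity values made, per the submitters' processing notes, with Agilent Feature Extraction 12.0.3.1, background-subtracted and detrended within the array, with no normalization between arrays. The authors' processed table holds 30763 of these intensity values per array, multiplied by 1 factor for each array (3.46 young, 3.34 untreated aging, 3.96 suppressed aging, with medians of 175, 186 and 174), so its linear scale and direction are known and the basis of the factors is not.

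Of these values, control spots and outlier spots (100 young, 118 suppressed aging) were left out, no spot was saturated, replicate spots were averaged as log2, and the array's 75th percentile (an intensity of 145 young, 155 untreated aging, 122 suppressed aging) was subtracted. Depth does not apply to arrays. Probes well above background numbered 33060 on the young and 31892 on the suppressed aging array, and 29763 were so on both. Gene names came from RefSeq GRCm38.p6 by transcript accession (33767 of 56605 probes). The array design names an older build, so no probe coordinates are given. The promoter coordinates are those of RefSeq GRCm38.p6. The brightest probe measured on both arrays stood for its gene.

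With 1 array per condition no test was made. Genes were counted past 2-fold, and lists were described by counts and medians beside those of all genes. The members and lists were chosen with earlier results of these data known. Genes named are the 10 leading ones in each direction with 2 agreeing probes and in the brightest 25%, up to 4 members past 2-fold and the brightest other member of each list, and those the study names. Further list members were chosen after their values were seen, as were the lists described. The alternatives were normexp (offset 50, limma 3.58.1, on median signals), quantile normalization, centring on the median or on housekeeping genes, the authors' values, outlier spots kept, the mean over probes, probes above background on all 3 arrays, the upper 50% of probes by level, and a 5-fold threshold. The gene table was tested on simulated data. Some list members are counted in their lists but not reported here by name. Python 3.11.15, NumPy 2.4.6, pandas 2.3.3, Matplotlib 3.10.9 and R 4.3.3 were used.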

Additional observations from a re-analysis of the deposited data

Results flagged for a closer look

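Genes with no probe well above background on both arrays were outside the comparison. Among them, 763 had a probe well above background on the suppressed aging array alone and 1055 on the young array alone. Against the higher of the other array's detection limit and the probe's own value there, 77 genes were at least 5-fold higher in suppressed aging and 55 at least 5-fold lower, which is a signal that the counts of the report do not hold. Dnah8, an axonemal dynein chain, was at least 271-fold higher in suppressed aging blastocysts, at 4.13 there, at -0.12 in untreated aging and not well above background in young blastocysts. Rbmy, a Y-linked multicopy gene, was at least 45.1-fold higher, with 1.31 in suppressed aging and -2.10 in untreated aging blastocysts. Tafa3, a secreted neural protein, was at least 56.2-fold higher and above background on the suppressed aging array only. On the other side, Mov10l1, a helicase of the piRNA pathway, was at least 45.4-fold lower, at 1.57 in young and -2.22 in untreated aging blastocysts. Foxn4, a transcription factor, was at least 21.5-fold lower, at 0.49 and -0.07. Each of these values rests on 1 probe chosen as the brightest on the array where it was seen.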

How the results depend on the processing

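No paired analysis was possible because single arrays carry no replicate numbers, and leaving 1 out would leave no comparison. With normexp background correction, 346 genes were over 2-fold higher and 347 lower, and 7 and 11 by 2 probes. With the upper 50% of probes these counts were 407, 345, 16 and 10, and with a 5-fold threshold 140, 109, 2 and 2. The other settings kept these counts within 1.5 times of 1010, 923, 56 and 38. The share higher among genes past the threshold was 52.3% and ran from 49.7% with the authors' values to 56.2% at 5-fold, so which direction held more genes depended on the setting. The median of all genes ran from 0.00 to 0.06. The median of imprinted genes minus that of all genes was 0.30 with the mean over probes, and that of histones 0.21 with normexp. None of 17 list medians changed sign relative to all genes where it lay over 0.2 away. Of 264 named genes past 2-fold, Map3k10 (0.38), Rab17 (-0.47) and Slc15a2 (0.019) changed sign with the mean over probes. The cause of these shifts was not tested. Precision is limited by 1 pool per condition and, for dim probes, by signal over background.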

Other observations

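Germ line and embryo gene families differed in both directions. Of 15 measured homeobox genes of embryo and germ line, 4 were over 2-fold higher and 0 over 2-fold lower, while 9 of the 15 were lower by any size and the median was -0.06. Rhox2e, of the X-linked reproductive homeobox cluster, was at -2.69 in young, -0.78 in untreated aging and -0.42 in suppressed aging blastocysts, a difference of 2.26. Its near-identical copy Rhox2c was at -1.98, 0.47 and 0.28, also 2.26, and probes of such copies may read each other. Both aging pools lay above young for these genes. Obox1, an oocyte-specific homeobox gene, was higher by 1.84 and Duxbl2 by 1.48. In the PRAME family 4 of 24 were over 2-fold higher, led by Pramel19 at -1.52, -0.07 and 0.42, and 0 over 2-fold lower, with a median of 0.12. Of 19 measured KH-domain and NLRP oocyte genes 0 were over 2-fold higher and 2 lower, and of 5 TCL1 genes 0 were higher and 1 lower past 2-fold.

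Of 17 sirtuin and HDAC genes, deacetylases, 3 were over 2-fold higher and 3 lower, and the median absolute difference was 0.61, against 0.35 over all genes. Sirt2, a cytosolic sirtuin, was at 1.04 in young, 1.05 in untreated aging and 3.06 in suppressed aging blastocysts, a difference of 2.02 with 0.16 at its second probe. Sirt7, a nucleolar sirtuin, was at 3.68, 1.46 and 1.64, a difference of -2.05 with -0.22 at its second probe. In glycolysis, Pkm, the pyruvate kinase of dividing cells, was at 5.51, 6.08 and 7.14, a difference of 1.63 with 0.21 at its second probe, while Pfkp and Aldoc were lower by both of their probes, at -1.75 and -0.65 and at -1.42 and -0.57.

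Genes that mark the sex of embryos differed between the pools. Xist, the RNA of the inactive X chromosome, was at 5.20 in young, 4.64 in untreated aging and 4.41 in suppressed aging blastocysts, a difference of -0.80. The Y-linked Eif2s3y, Ddx3y and Kdm5d differed by 0.57, 0.56 and 0.49, with 0.14 at the second Eif2s3y probe, and Uty by -0.68. The part of the sex ratio of the pools in the other differences was not tested.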
